A study of Mus musculus with 2 samples.

Results

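The genes described here encode the nuclear share of the oxidative phosphorylation machinery of the inner mitochondrial membrane. They were chosen by symbol, as every gene in both deposited tables whose name begins with Nduf, Cox followed by a digit from 4 to 8, Uqcr or Atp5, together with Sdha, Sdhb, Sdhc and Sdhd. This gave 90 genes of the 22072 in the tables, and no expression value was used to choose them. One of them, Cox4nb, matches the pattern but encodes a subunit of a membrane complex of the endoplasmic reticulum, and it was kept apart from the respiratory complexes.

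Whole-lung RNA of mice on the C57/BL6 background was compared between 2 genotypes. Control mice carried Foxf1 fl/fl alleles without Cre, and knockout mice carried Pdgfb-iCreER / FoxF1 fl/fl, so the floxed alleles are shared by both groups and the Cre transgene is not. Pdgfb-iCreER is a tamoxifen-inducible recombinase driven by the Pdgfb promoter, which is active in endothelial cells, and Foxf1 encodes a forkhead transcription factor of lung mesenchyme and endothelium. RNA of several animals was pooled for each genotype, which leaves 1 library per group. The number, age and sex of the animals, the tamoxifen treatment and the deleted part of Foxf1 are given in none of the sources used here. No difference below therefore has a replicate check, no p-value was computed, and effects of Cre and of reduced Foxf1 cannot be told apart.

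Values are FPKM, fragments scaled to transcript length and library total, summed over the transcripts of a gene. FPKM is scaled to length, so levels of different genes can be compared. Log2 ratios are given as the difference in log2(FPKM + 1), knockout minus control, and folds of single genes are plain FPKM ratios, followed by their 95% counting interval in parentheses. The intervals rest on approximate read numbers derived from the deposited coverage, 13.2 M in the control library and 10.4 M in the knockout library, and cover counting error only. Counts of genes use those with a mean FPKM of 1 or more, which were 12929 genes in all and 88 of the 90 members. The remaining 2 members, Cox7b2 and Cox8c, were listed at 0 in both libraries. Foxf1, listed as Foxf1a, had 72.1 FPKM in control and 15.7 in knockout lungs, 4.59-fold lower (3.97 to 5.34). Its record may or may not cover the deleted part.

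Oxidative phosphorylation couples the burning of fuel to the making of ATP. Complex I takes electrons from NADH and complex II, which is also an enzyme of the citrate cycle, takes them from succinate. Both pass them through coenzyme Q to complex III and through cytochrome c to complex IV, which hands them to oxygen. The protons pumped on the way return through complex V, the ATP synthase. Most subunits are nuclear-encoded and made in the cytosol, and a small set is encoded in mitochondrial DNA. The tables hold 0 mitochondrial records, so the subunits encoded in mitochondrial DNA were not analysed here. Several subunits of complex IV exist as a general isoform and as isoforms restricted to muscle, testis, or cells exposed to low oxygen.

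Promoters of these genes are known for sites of the factor NRF1, of the ETS family, which includes GABP, and of YY1. RefSeq promoter windows on GRCm38.p6, reaching from 250 bases before to 50 bases after an annotated start, were matched for 74 of the 90 members and gave 80 windows. The letters GCGCATGCGC, a palindromic form of the NRF1 motif that reads the same on both strands, were found in 6 of the 80 windows (7.5%), against 0.971% of all 32851 windows of the same length and 1.91% of the 12922 windows of expressed genes. This motif was picked for display because the median ratio of its carriers was above that of the other members. The same held for YY1, whose sites are not shown, and a link of either motif to the ratios was not tested. The sites of Ndufa11, Atp5k, Atp5g2, Cox6a1 and Ndufaf4 are shown with 10 flanking bases on each side. They are printed 5′ to 3′ in the direction of the gene, with the motif in capitals.
Ndufa11, chr17:56717692-56717721, plus strand: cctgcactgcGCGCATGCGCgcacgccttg
Atp5k, chr5:108434430-108434459, minus strand: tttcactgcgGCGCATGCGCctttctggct
Atp5g2, chr15:102671070-102671099, minus strand: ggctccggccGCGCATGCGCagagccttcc
Cox6a1, chr5:115349101-115349130, minus strand: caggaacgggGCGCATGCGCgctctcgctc
Ndufaf4, chr4:24897960-24897989, plus strand: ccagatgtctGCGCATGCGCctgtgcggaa

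The first motif base lies 60 bases before the annotated start in Ndufa11, 50 in Atp5k, 42 in Atp5g2, 162 in Cox6a1 and 113 in Ndufaf4. In the last of the 6, Uqcrc1, the motif begins at base 31 after the start. The log2 ratios of these 6 members ran from 0.29 to 0.62 with a median of 0.45, and the 67 other members with a window and a mean FPKM of 1 or more had a median of 0.25. The ETS letters CCGGAAG, searched on both strands, were in 17 of the 80 windows (21.2%), against 8.86% of all windows and 16.9% of those of expressed genes. Members with and without them had medians of 0.26 and 0.26. The YY1 letters AAGATGGC, also searched on both strands, were in 12 windows (15%), against 2.75% of all windows and 4.27% of those of expressed genes. Their 11 members over the floor had a median of 0.31 and the others 0.25. A match of letters is a description of the window and no measurement of binding.

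Transcripts of the oxidative phosphorylation genes were modestly higher in the knockout pool, and they were so across all 5 complexes. Their FPKM summed to 5274 in control and 6419 in knockout lungs, 1.41% and 1.70% of all FPKM. The median log2 ratio of the 88 members was 0.26, a 1.2-fold difference, with the middle 50% of members between 0.17 and 0.36, whereas the 12929 genes had a median of 0.05 and a middle 50% from -0.16 to 0.28, and 27% of them lay above the median of the members. A ratio above equality was held by 77 members, where 56.8% of all genes were above, and 11 members were below, where 43.2% of all genes were. The members thus sat in a narrow band on the upper side of the distribution of all genes, and 63 of them lay between 0.1 and 0.5.

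Few members differed by much. At 1.5-fold on the log2 scale, 8 members were higher (9.41% of all genes were) and 1 was lower (4.63% of all genes were). The 8 were Cox4i2, Cox5a, Ndufb6, Atp5k, Ndufa11, Atp5g1, Cox5b and Ndufa4l2, and the 1 was Cox8b. The share of members that were higher is close to the background, and the share that were lower is under it. At 1.2-fold, 40 members were higher, where 26.4% of all genes were, and 5 were lower, where 16.3% were. No member reached 2-fold, where 3.75% of all genes were higher and 1.25% lower. The counting interval of the ratio lay above 1 for 64 members (33.4% of all genes), below 1 for 4 (21.9% of all genes) and included 1 for 20. Just inside the 1.5-fold limit were Ndufa4l2 at a log2 ratio of 0.60 and Cox5b at 0.60, and just outside were Uqcrq at 0.56 and Ndufa4 at 0.54, and on the lower side Cox6b2 at -0.55.

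**Figure D1:**
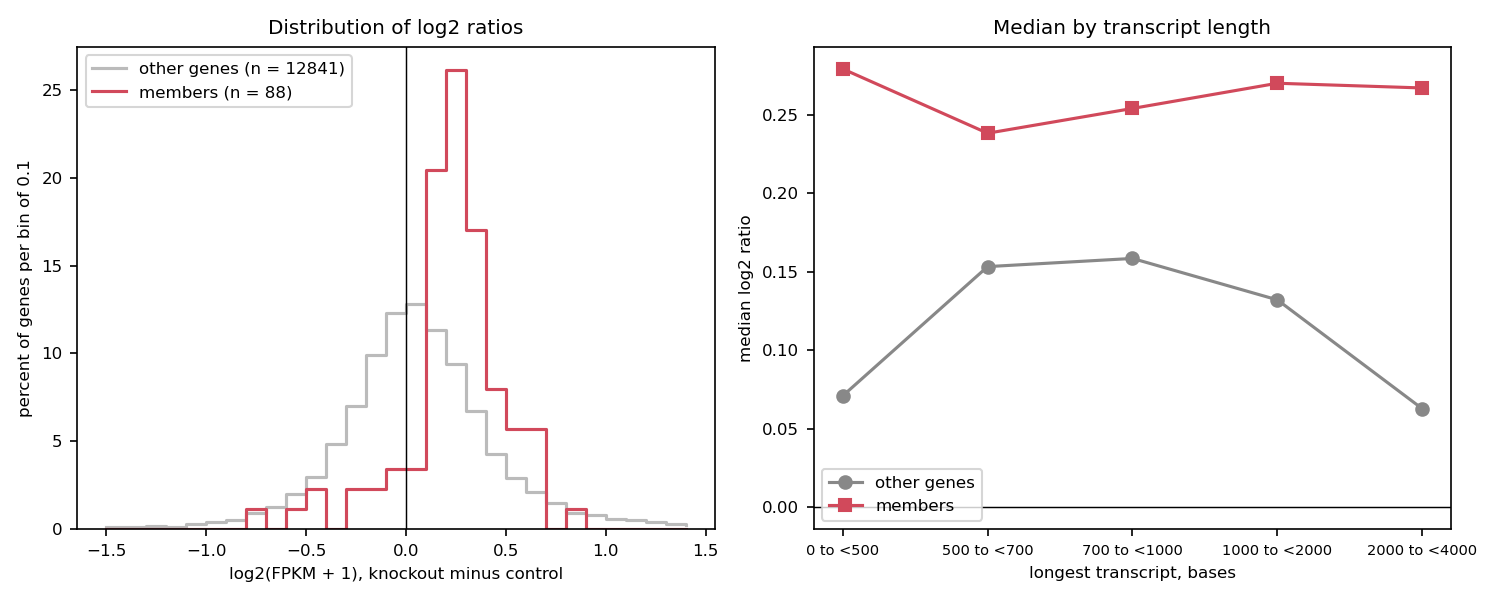
Left, distribution of the log2 ratio, log2(FPKM + 1) of the knockout pool minus the control pool, for the 88 members (red) and the 12841 other genes (grey), as percent of genes per bin of 0.1. Right, median log2 ratio in classes of longest transcript length; the members' median stays between 0.24 and 0.28 in the 5 classes drawn, above that of the other genes in each.

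The scale of the libraries bears on these counts. The most abundant lung transcript of the lists, Scgb1a1, a secretoglobin of club cells, had 35265 FPKM in control and 22774 in knockout lungs, and FPKM divides by the library total. When the knockout values were divided by the median ratio of all genes, 1.04, 2 members were 1.5-fold higher (Cox4i2 and Cox5a) and 2 lower (Cox6b2 and Cox8b). Of all 12929 genes, 1053 were 1.5-fold higher and 714 lower on this scale. There were 76 members above equality and 12 below, where 50.1% of all genes were above. When the libraries were set to a common total without the 100 most abundant genes, 1 member was higher (Cox4i2) and the same 2 were lower. Of all 12929 genes, 983 were then 1.5-fold higher and 786 lower. There were 74 members above equality and 14 below, where 46.5% of all genes were above. The median of the members was 0.20 and 0.17 on these scales.

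Short transcripts are a shared property of the members, whose longest transcripts had a median of 686.5 bases, against 2753 over all genes. The difference from other genes was present at every length with more than 1 member. The 16 members under 500 bases had a median of 0.28 and the 216 other genes of that length 0.07. From 500 to under 700 bases the medians were 0.24 for 29 members and 0.15 for 259 other genes, and from 700 to under 1000 bases 0.25 for 14 members and 0.16 for 561 others. From 1000 to under 2000 bases they were 0.27 for 22 members and 0.13 for 3016 others, and from 2000 to under 4000 bases 0.27 for 6 members and 0.06 for 5251 others. The class nearest to the members was that of 500 to under 1000 bases, where other genes were also above the overall median. The genes of the cytosolic ribosome, another large set of short and abundant transcripts (median longest transcript 684 bases), had a median log2 ratio of -0.04, with 31 of 81 above equality. Near-identical copies of ribosomal protein genes were not checked. By level, the 17 members with 100 FPKM or more had a median of 0.28, all above equality, and the 496 other genes at that level had 0.11. The 9 members under 10 FPKM had a median of -0.12, with 4 above equality.

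**Figure D2:**
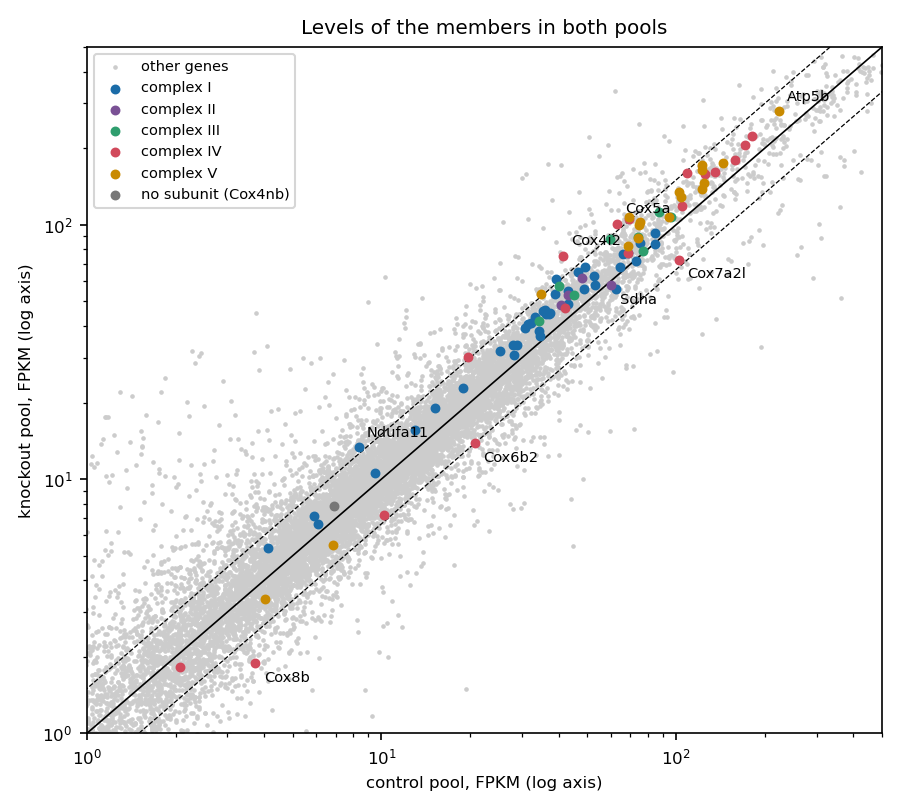
FPKM of every gene in the control pool (horizontal, log axis) and in the knockout pool (vertical, log axis), each axis from 1 to 500, with the members coloured by complex and other genes in grey. The solid line marks equality and the dashed lines a 1.5-fold difference; most members lie just above the solid line, while Cox7a2l, Cox6b2 and Cox8b lie below it.

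Complex I, the NADH dehydrogenase, had 40 members, all expressed. Of these, 37 were above equality and 3 below, with a median log2 ratio of 0.25, and 2 were at least 1.5-fold higher. Their FPKM summed to 1563 in control and 1836 in knockout lungs, a ratio of 1.18. The 7 core subunits, which hold the flavin and the iron-sulphur clusters, the 29 accessory subunits and the 4 assembly factors Ndufaf1 to Ndufaf4 had medians of 0.25, 0.26 and 0.24. Core subunits, accessory subunits and these 4 assembly factors thus had similar medians, but the intervals of 3 of the 4 factors included equality.

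The 2 members of complex I that were at least 1.5-fold higher had nearly the same ratio. One was Ndufb6, an accessory subunit of the membrane arm, on chromosome 4 from 40217696 to 40226401 (mm9). It had 39.1 FPKM in control and 61.3 in knockout lungs, 1.57-fold higher (1.36 to 1.81). Ndufa11, an accessory subunit that helps to hold the complex together, on chromosome 17 from 56857185 to 56863671, was the other and had 8.36 and 13.3 FPKM, 1.6-fold higher (1.39 to 1.84). Its annotated transcript of 2661 bases is long for this family. Among core subunits, Ndufv2, which carries an iron-sulphur cluster next to the flavin, was the highest at 31.4 and 40.9 FPKM, 1.30-fold (1.17 to 1.44). Ndufv1, the flavin-binding subunit that receives electrons from NADH, had 34.6 and 36.6 FPKM, and its interval of 0.96 to 1.17 included equality. The 3 members below equality were accessory subunits. Ndufa6 had 62.7 and 55.7 FPKM, 1.13-fold lower (0.99 to 1.28), Ndufa7 84.8 and 84.0 FPKM, and Ndufb11 73.2 and 71.9 FPKM, so none of the 3 was apart from equality by more than counting error. The most abundant were Ndufa3, at 84.9 and 93.1 FPKM, and Ndufa7. Ndufs1, the largest core subunit, was spread over 4 transcripts that summed to 18.9 and 22.8 FPKM, and of these the ones with 2665 bases (7.16 and 10.5 FPKM) and 2769 bases (3.21 and 4.95 FPKM) were higher and the ones with 2927 bases (2.93 and 2.01) and 2823 bases (5.58 and 5.29) lower. Both transcripts of Ndufv3, which encode a short and a long form of this accessory subunit, were higher, the short at 27.5 and 36.9 FPKM and the long at 7.75 and 8.88.

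**Figure D3:**
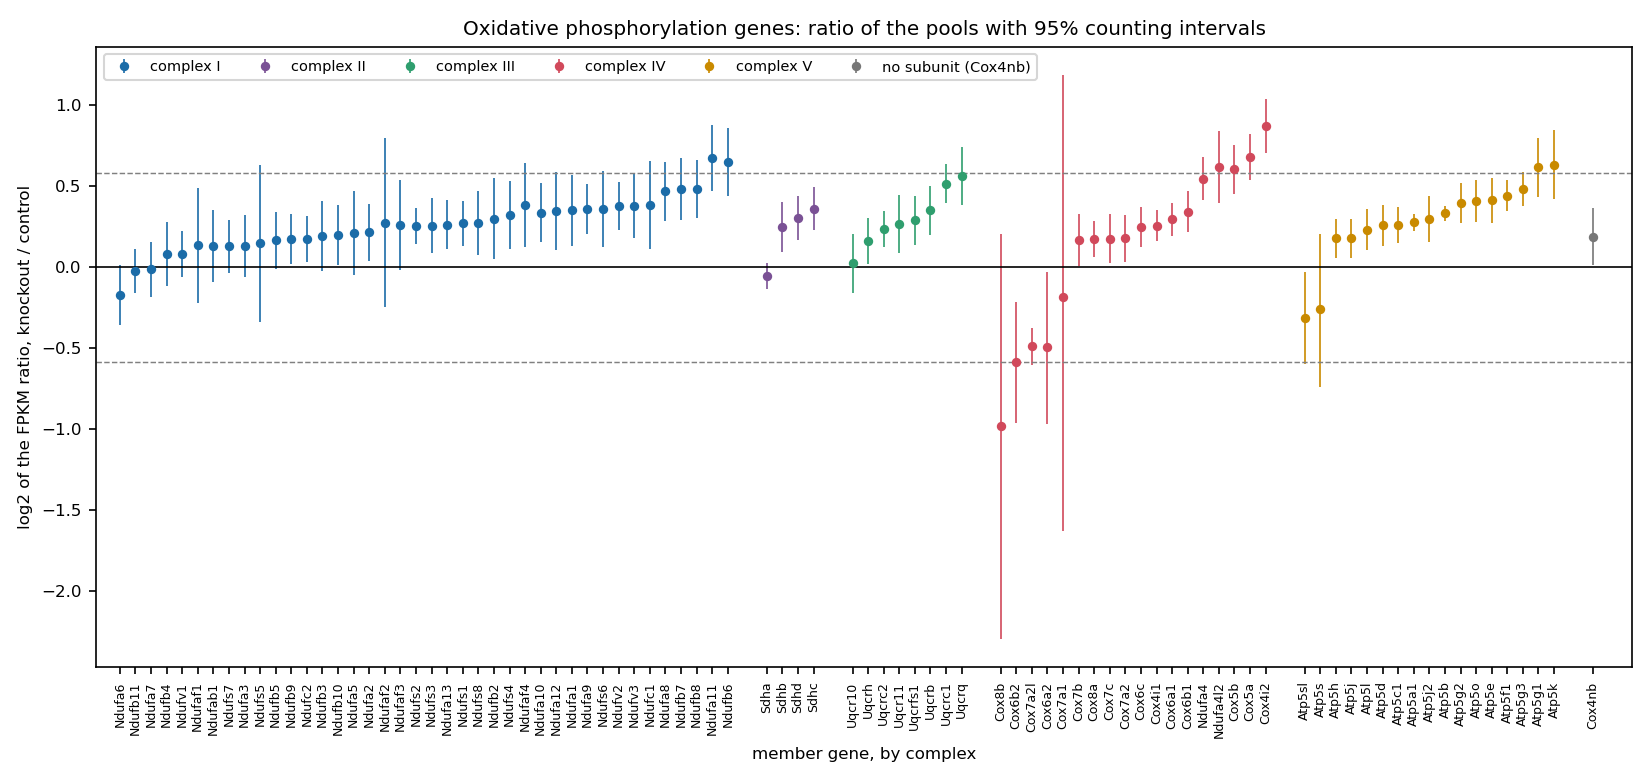
Log2 of the plain FPKM ratio, knockout over control, for each of the 88 members over the floor, sorted within each complex, with vertical lines for the 95% counting interval and dashed lines at 1.5-fold. Most points lie between 0.1 and 0.5, and the members below the lower dashed line or close to it belong to complex IV.

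Complex II, succinate dehydrogenase, has no subunit encoded in mitochondrial DNA, so its 4 members are the whole enzyme. Its median was 0.27, and the summed FPKM was 192 in control and 221 in knockout lungs. The iron-sulphur subunit Sdhb (40.8 and 48.4 FPKM) and the membrane anchors Sdhc and Sdhd were higher. Sdhc had 48.0 and 61.6 FPKM, 1.28-fold (1.17 to 1.41), and Sdhd 43.0 and 53.1 FPKM, 1.23-fold (1.12 to 1.36). Sdha, the flavin-bearing catalytic subunit and the most abundant of the 4, had 60.3 and 58.0 FPKM, 1.04-fold lower (0.98 to 1.10). The catalytic subunit was therefore not higher where the others were, with a log2 ratio of -0.05 (-0.14 on the common total), and the counting intervals of Sdha and of Sdhb (1.07 to 1.32 higher) do not overlap.

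Complex III, the cytochrome c reductase, had 8 members in the pattern, all of them above equality as deposited, with a median of 0.27. Their FPKM summed to 514 and 627. Uqcrq, a small subunit that contacts cytochrome b, was the highest at 59.6 and 88.1 FPKM, 1.48-fold (1.31 to 1.67). Uqcrc1, a core protein of the matrix side, had 40.1 and 57.3 FPKM, 1.43-fold (1.32 to 1.55), and its partner Uqcrc2 had 45.1 and 53.1 FPKM, 1.18-fold (1.09 to 1.27). The Rieske iron-sulphur protein, Uqcrfs1, had 34.3 and 41.9 FPKM, 1.22-fold (1.10 to 1.36). The most abundant were Uqcrh, at 95.8 and 107 FPKM, and Uqcrb, at 87.5 and 112 FPKM. The lowest was Uqcr10, at 77.4 and 78.7 FPKM, within counting error of equality and below it on both other scales of the libraries. Cytochrome c1, the other catalytic nuclear-encoded subunit, is listed under another symbol, Cyc1, and had 43.6 and 56.6 FPKM, 1.30-fold higher (1.18 to 1.43).

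Complex IV, cytochrome c oxidase, was the most varied. Of its 20 members 18 were expressed, 13 above equality and 5 below, and it held 4 of the 8 members that were 1.5-fold higher and the 1 that was lower. The median was 0.21 and the summed FPKM 1430 and 1740. The 11 general subunits were all above equality with a median of 0.26, and their summed FPKM was 1.25-fold higher. Of the 6 expressed tissue isoforms 2 were above and 4 below, with a median of -0.28, and 2 of the 6 intervals included equality. Their summed FPKM was nevertheless 1.34-fold higher, at 97.7 and 131. Cox7a2l, in neither class, was also below.

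Among the general subunits, Cox5a and Cox5b, a pair that lies next to each other at the matrix side of the enzyme, stood highest. Cox5a, on chromosome 9 from 57369039 to 57380233, had 63.0 FPKM in control and 101 in knockout lungs, 1.6-fold higher (1.45 to 1.77). Cox5b had 69.1 and 105 FPKM, 1.52-fold higher (1.37 to 1.69). Ndufa4, first described with complex I and now known as a subunit of complex IV, had 109 and 160 FPKM, 1.46-fold higher (1.33 to 1.60). The most abundant subunits differed less, with Cox6a1 at 181 and 223 FPKM, 1.23-fold (1.14 to 1.32), and Cox4i1 at 172 and 205 FPKM, 1.2-fold (1.12 to 1.28). Cox8a (159 and 179 FPKM), Cox7a2 (68.7 and 77.7), Cox7b (42.0 and 47.2) and Cox7c (105 and 118) were each 1.12-fold to 1.13-fold higher, with intervals just above 1.

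The tissue isoforms went in both directions. Cox4i2, an alternative to Cox4i1 found in lung and in cells of the vessel wall and known for its part in oxygen sensing, had the highest ratio of all members. On chromosome 2 from 152579909 to 152590773, it had 41.3 FPKM in control and 75.6 in knockout lungs, 1.83-fold higher (1.63 to 2.06), and it made up 19.4% of the Cox4 pair in control and 26.9% in knockout lungs. Ndufa4l2, a hypoxia-inducible relative of Ndufa4, had 19.7 and 30.2 FPKM, 1.54-fold higher (1.32 to 1.79). Since Ndufa4 was higher as well, its share of that pair was nearly level, at 15.3% and 15.9%. Cox4i2 was thus higher relative to its general isoform, and Ndufa4l2 was higher together with it.

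The other expressed isoforms were lower. Cox6b2, known as the testis isoform, on chromosome 7 from 4703396 to 4704696, had 20.8 and 13.9 FPKM, 1.5-fold lower (1.16 to 1.95), and its share of the Cox6b pair was 14.2% and 8.02%. Both of its transcripts were lower, the one of 551 bases at 12.8 and 9.80 FPKM and the one of 461 bases at 8.02 and 4.07 FPKM. The heart and skeletal muscle isoform Cox6a2 had 10.2 and 7.23 FPKM, 1.41-fold lower (1.02 to 1.96), with a share of 5.30% and 3.14% of its pair. The remaining muscle isoforms were near the lower limit of what these libraries show. Cox8b had 3.73 and 1.89 FPKM, 1.97-fold lower with an interval that included equality (0.87 to 4.91), since it rests on about 22.3 and 8.77 reads. Cox7a1 had 2.08 and 1.83 FPKM, from about 12.5 and 8.55 reads. Their shares were 2.30% and 1.05% of the Cox8a and Cox8b pair, and 2.94% and 2.30% of the Cox7a1 and Cox7a2 pair. For Cox7b2 and Cox8c, at 0, a transcript of 500 bases would need 0.364 FPKM in the control library and 0.470 in the knockout library to reach 3 reads.

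**Figure D4:**
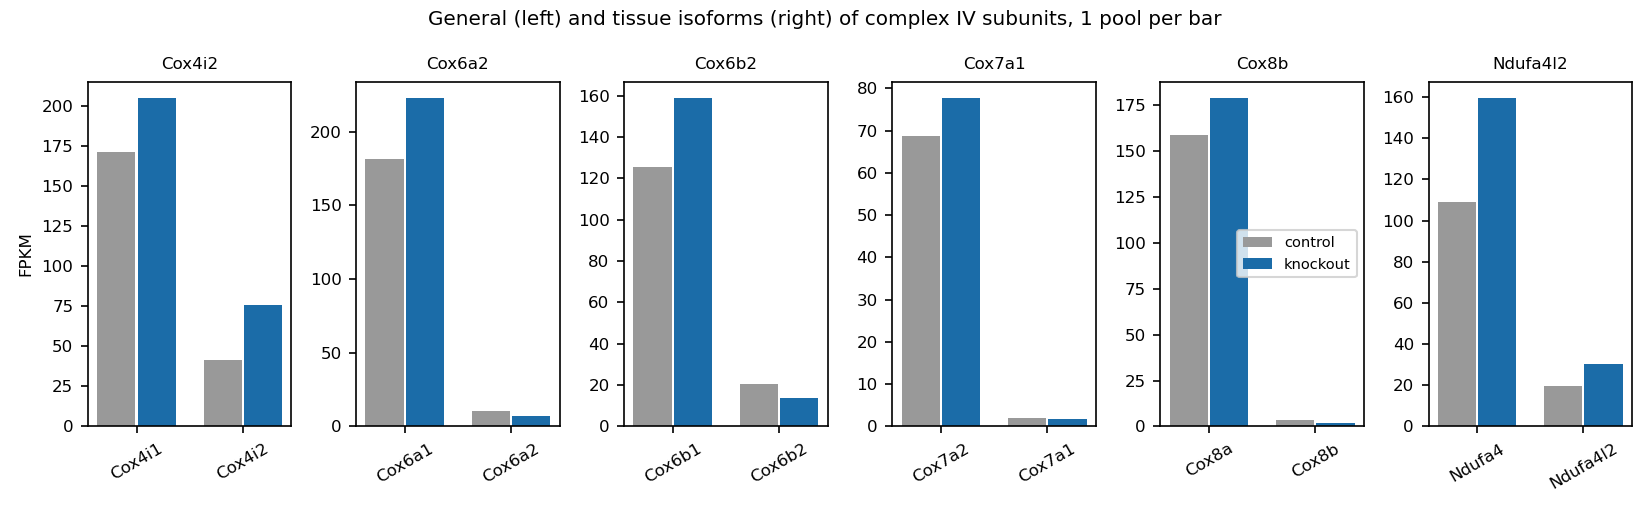
FPKM of the general isoform (left pair of bars) and of the tissue isoform named in each panel title (right pair) in the control pool (grey) and the knockout pool (blue), with each bar 1 library and each axis starting at 0. All 6 general isoforms are higher in the knockout pool, whereas among the tissue isoforms Cox4i2 and Ndufa4l2 are higher and Cox6a2, Cox6b2, Cox7a1 and Cox8b are lower.

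In whole-lung RNA, a change in the number of cells of a type and a change in RNA per cell cannot be told apart. Cox4i2 and Ndufa4l2 are known from pericytes, whose 7 markers were all over the floor and summed to 71.0 FPKM in control and 98.5 in knockout lungs, with Cspg4 (3.15 and 7.39) and Higd1b (17.9 and 29.0) higher and Kcnj8 (3.39 and 2.14) and Abcc9 (2.55 and 1.90) lower. The 4 smooth muscle markers summed to 156 and 339 FPKM. Their part in the values of Cox4i2 and Ndufa4l2 was not tested. Of the 10 cardiac muscle markers 5 were over the floor, and the list summed to 23.2 and 37.2 FPKM, most of it Actc1 (15.9 and 26.1). Of the 5 over the floor, 4 were above equality, among them Myl7 (1.60 and 4.75 FPKM) and Tnnt2 (0.748 and 2.38 FPKM). The 1 below was Tnni3, a troponin of heart muscle, at 2.24 and 1.32 FPKM. Its interval included equality (0.87 to 3.48 lower). None of the 8 skeletal muscle markers reached the floor (2.54 and 2.86 FPKM in sum), and all 5 testis markers were at 0. Of the 5 brown fat markers 1 reached the floor, Fabp3 (3.49 and 6.50 FPKM), and Ucp1 and Elovl3 were at 0. The 4 adipose markers summed to 6.18 and 2.99 FPKM, nearly all of it Cidec (6.10 and 2.87), the 1 over the floor. Adipoq (0.0466 and 0.121 FPKM) and Plin1 (0.0314 and 0) were close to 0, and Lep was at 0. The part of heart or fat tissue in the lower values of Cox6a2 and Cox8b was not tested.

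Cox7a2l, a relative of the Cox7a subunits that joins complexes III and IV into supercomplexes, was the abundant exception. On chromosome 17 from 83901257 to 83913673, it had 102 FPKM in control and 72.9 in knockout lungs, 1.40-fold lower (1.30 to 1.52), from about 1824 and 1006 reads. Both of its transcripts were lower, the main one of 1080 bases at 100 and 72.3 FPKM and the one of 1149 bases at 1.95 and 0.678 FPKM. Among the members with a mean of 20 FPKM or more it was the 1 whose counting interval lay below equality, while its relative Cox7a2 lay above.

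Complex V, the ATP synthase, had 17 members and the highest median of the 5 complexes, 0.29, with 15 above equality and 2 below. Its FPKM summed to 1568 and 1987, a ratio of 1.27. The 5 nuclear-encoded subunits of the catalytic head and its stalk were all higher with a median of 0.28, among them the catalytic subunit Atp5b, the most abundant member of all, at 223 and 280 FPKM, 1.26-fold (1.22 to 1.30), and its partner Atp5a1 at 144 and 175 FPKM, 1.21-fold (1.17 to 1.26). The ring had the highest median of these classes, 0.48 over 3 genes. Atp5g1, Atp5g2 and Atp5g3 encode the same mature protein of the rotating membrane ring with different import signals. Atp5g1, on chromosome 11 from 95934107 to 95937008, had 34.9 and 53.4 FPKM, 1.53-fold higher (1.35 to 1.74). Atp5g2 had 103 and 135 FPKM, 1.32-fold (1.21 to 1.43), and Atp5g3 had 122 and 171 FPKM, 1.40-fold (1.30 to 1.51). All 3 were higher, and their shares of the ring transcripts were close between the pools, at 13.4% and 14.9% for Atp5g1, 39.5% and 37.5% for Atp5g2, and 47.1% and 47.6% for Atp5g3.

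The 7 accessory subunits of complex V were all higher with a median of 0.29. Atp5k, which lies in the membrane part where the enzyme forms dimers, on chromosome 5 from 108862272 to 108863397, was the highest at 69.3 and 107 FPKM, 1.55-fold (1.34 to 1.80). Atp5f1, the peripheral stalk subunit, had 75.3 and 102 FPKM, 1.36-fold (1.27 to 1.45), and Atp5o, which ties that stalk to the head, had 75 and 99.5 FPKM, 1.33-fold (1.21 to 1.45). The 2 members below equality carry the Atp5 name without being standard subunits, Atp5s at 4.03 and 3.36 FPKM and Atp5sl at 6.85 and 5.51 FPKM, 1.24-fold lower (1.02 to 1.52). Cox4nb, which belongs to no complex here, had 6.89 and 7.85 FPKM.

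Across the complexes, the 74 general subunits (core, accessory and ring) had a median of 0.26, with 70 above equality and 4 below, Ndufa6, Ndufa7, Ndufb11 and Sdha. None of these 4 had an interval apart from equality. Markers of dividing cells, which differed far more, stood beside this result: all 5 were over the floor and summed to 11.6 FPKM in control and 144 in knockout lungs. Markers of club cells summed to 39984 and 25144 FPKM, of ciliated cells to 221 and 115, and of alveolar type 2 cells to 19171 and 16429. Most of the type 2 sum was Sftpc (15925 and 13793 FPKM). Of the 5 type 2 markers 3 were below equality and 2 above, Abca3 (73.8 and 77.5) and Lamp3 (140 and 157). The 7 endothelial markers summed to 960 and 965 FPKM, but single markers went far in both directions, with Emcn (30 and 153 FPKM) and Kdr (65.8 and 103) higher and Cldn5 (263 and 150) and Tek (74.3 and 51.2) lower. The part of these cells in the higher values of the general subunits was not tested.

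Other mitochondrial gene lists were set beside the members. Subunits of the same complexes with other symbols had 5 of 6 above equality and a median of 0.28. The lowest of these was Higd1a, an associate of complex IV (12.1 and 10.6 FPKM), the highest 2010107E04Rik, a small subunit of the ATP synthase (62.5 and 87.2 FPKM), and the most abundant Usmg5, another one (69.1 and 84.5 FPKM). The carriers and porins that move ATP, ADP and phosphate had 6 of 7 above equality and a median of 0.34, led by the ADP/ATP carrier Slc25a5 at 148 and 212 FPKM, 1.43-fold higher (1.36 to 1.5), and with the uncoupling protein gene Ucp2 lowest at 101 and 93.3 FPKM. Of 76 mitochondrial ribosomal protein genes, 64 were above equality with a median of 0.24, and 5 were 1.5-fold higher and none lower. Their highest was Mrpl46 (6.87 and 11.5 FPKM), their lowest Mrps6 (13.8 and 10.9) and their most abundant Mrpl52 (46.8 and 73.5). The medians of these 3 lists were thus close to or above that of the members.

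Smaller medians were found for the other mitochondrial lists. Protein import had a median of 0.18 (16 of 20 above equality), from Timm17a (24.2 and 34.9 FPKM) to the chaperone Hspd1 (56.3 and 52.2). Coenzyme Q, cytochrome c and electron-transfer genes had 0.16 (12 of 16), from Pdss1, the first enzyme of the coenzyme Q side chain (1.08 and 2.18 FPKM), to Sqrdl (24.5 and 21.4), with Etfb most abundant (47.4 and 64.7). The citrate cycle, listed together with the pyruvate enzyme genes Pdha1, Pdhb, Dlat and Pcx, had 0.15 (17 of 18). This list ran from Idh3a (19.4 and 27.7 FPKM) to Pdhb (35.3 and 34.6), a subunit of pyruvate dehydrogenase and the only gene below equality. Mdh2 was the most abundant (69.8 and 84.7). Assembly factors other than the Ndufaf genes had 0.09 (21 of 25), from Cox18 (4.46 and 6.72 FPKM) to Surf1 (24.9 and 18.8), with Cox17 most abundant (49.6 and 50.1), and fatty acid oxidation had 0.02 (7 of 14, and -0.06 on the common total), from Acads (7.83 and 10.3) to Cpt1a (35.2 and 28.6), with Acadl most abundant (48.1 and 47.0).

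The machinery that maintains and transcribes mitochondrial DNA had a median on the other side of equality, by differences that were mostly within counting error. Its 10 genes had a median of -0.10, with 2 above equality and 8 below, and 9 of the 10 counting intervals included equality. Among them were the transcription factor Tfam (6.15 and 6.91 FPKM, the highest), Polg, the mitochondrial DNA polymerase (16.4 and 15.7), and Mterf (1.32 and 0.733, the lowest). The 6 expressed regulators of mitochondrial genes had a median of 0.08 (-0.01 on the common total), 3 above and 3 below. Pprc1, a coactivator related to PGC-1, had 4.88 and 8.30 FPKM, 1.70-fold higher (1.49 to 1.93). Nrf1 had 7.28 and 8.25 FPKM, Yy1 23.2 and 23.1, and Gabpa 12.6 and 11, 1.15-fold lower (1.04 to 1.27). Ppargc1a, which encodes PGC-1 alpha, was under the floor at 0.56 FPKM in both pools.

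**Figure D5:**
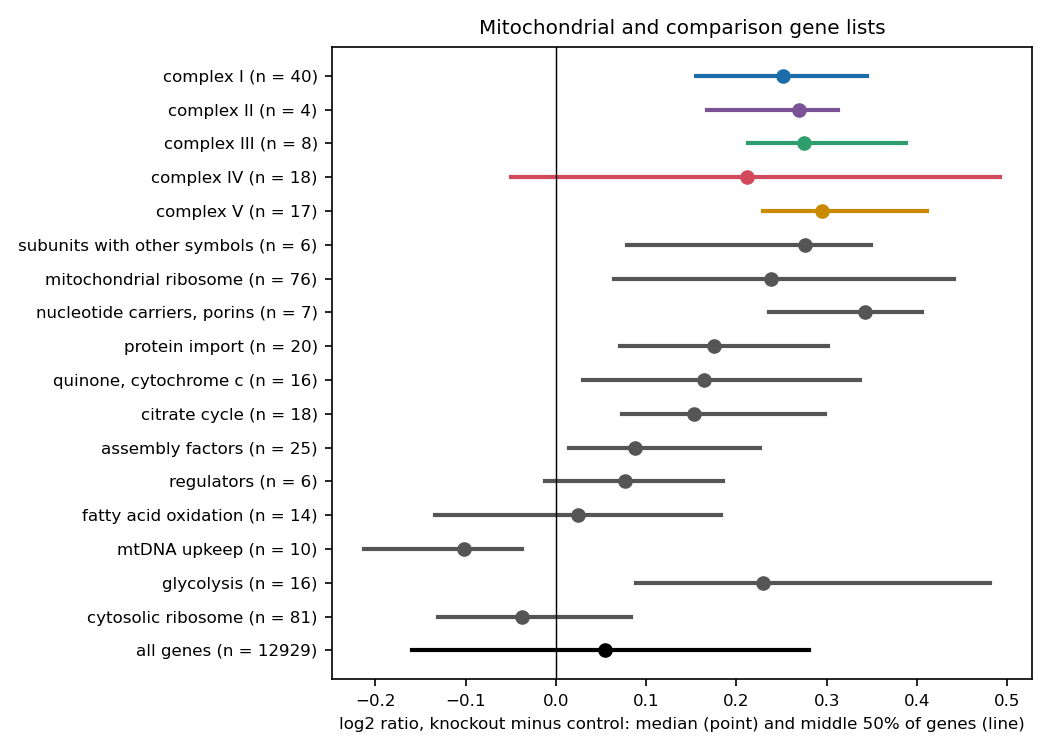
Median log2 ratio (point) and middle 50% of genes (line) for the 5 complexes (coloured), other mitochondrial lists, glycolysis and the cytosolic ribosome (dark grey) and all genes (black), with the number of expressed genes in parentheses. The complexes, the carriers and porins and the mitochondrial ribosome lie between 0.21 and 0.34, and the cytosolic ribosome at -0.04.

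Sequence copies limit single values. Copies with 95% identity or more over 250 bases or more were annotated in GENCODE for 23 of the 90 members, including Ndufb6, Cox5b, Atp5g1 and Cox7a2l, and none of the sources used here says how reads of such copies were assigned. Of these, 4 had a near-identical or overlapping gene in the tables themselves. The clearest was Ndufs5, at 9.51 and 10.6 FPKM, whose copy BC002163 was listed at 33.3 and 42.9 FPKM. The loci of 10 members overlap another gene, for example Atp5j with Gabpa and Ndufa4l2 with Shmt2 (7.63 and 8.77 FPKM), and the strand setting of the counting is not given. Without the 23 members with copies the median was 0.26, and 5 members were 1.5-fold higher and 1 lower.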

How the data were processed

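The authors deposited FPKM values and coverage for 28107 RefSeq transcripts of each pooled library, per the file headers, with a status for each. The submitters' processing notes name the build mm9 and the tool DESeq, and the sources used here give neither its role nor the aligner and quantifier. FPKM was a constant multiple of the deposited coverage within a library. The libraries were joined on transcript, gene, locus and length. All 99 member transcripts had status OK. Locus starts count from 0 and are printed plus 1. Coverage times length peaked, between 35 and 65 bases, at a median of 47.5 bases in the control and 47.6 in the knockout library, taken as the bases of 1 read. Members then held 12.5 to 6893 reads in the control and 8.55 to 6719 in the knockout library. Intervals are exact conditional (Clopper-Pearson) 95% intervals.

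FPKM was summed per symbol, with a pseudocount of 1, a floor of a mean FPKM of 1 and a threshold of 1.5-fold on the log2 scale. Scripts used Python 3.11.15, pandas 2.3.3, scipy 1.17.1 and blastn 2.17.0, and were checked on simulated data. The text names, per complex, the 2 most abundant members and both ends of the log2 ratio, every member 1.5-fold apart, every isoform of a pair, and the ends and most abundant gene of other lists; further subunits were named for their role. The members and lists were chosen with earlier results of these data known, and the glycolysis and cytosolic ribosome lists were added after seeing the data. A total of 14 alternative settings was tried.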

Additional observations from a re-analysis of the deposited data

How the results depend on the processing

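No paired analysis was possible because each genotype holds 1 pooled library, and no replicate could be left out. Of the settings, 12 were listed at the start and 2 were added after seeing the data. The median log2 ratio of all members ran from 0.17 to 0.26 over those that computed it. The fold thresholds of 2 and 1.2 gave counts only, and keeping transcripts with status OK could not move the members. Of 363 summary values, 343 kept their direction and stayed within a wide limit. For medians and summed ratios the limit was the typical counting error of a single gene, and for counts it was 1.5-fold. Within it, the median of complex IV went from 0.21 to as low as 0.12. Shares of isoform pairs cannot move with the pseudocount, the floor or the scale, so some values were the same by construction. Of 707 values of named genes, 699 moved by less than counting error and 8 moved more. Settings that only change the floor or leave out genes cannot move the ratio of a single gene. Many of the 699 were therefore the same by construction. Of the 707 values 4 took the other sign, within counting error of equality: Uqcr10 was -0.04 and Cox17 -0.05 after division by the median ratio of all genes, and they were -0.07 and -0.07 on the common total described next. The counts of members 1.5-fold apart moved most. Against 8 higher and 1 lower, a pseudocount of 3 gave 4 and 0, division by the median ratio 2 and 2, and a common total without the 100 most abundant genes 1 and 2. A floor of 5 FPKM or leaving out transcripts under 500 bases gave 0 lower. A threshold of 2 gave 0 and 0, and one of 1.2 gave 40 and 5. Without members with near-identical copies 5 were higher, and without complex IV 4 were higher and 0 lower. Medians close to 0 changed sign: that of the regulators was -0.0006 without a floor and -0.0061 on the common total, that of fatty acid oxidation -0.0353 after division by the median ratio and -0.0640 on the common total, and that of all genes -0.0251 on the common total. Stricter floors and left-out genes reduce the number of genes counted; for the rest the cause was not tested. Depth limits the genes with few reads, Cox7a1 and Cox8b, and not the abundant subunits. Differences between mice and between library preparations cannot be seen with 1 library per genotype.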

Other observations

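Glycolysis, the other route to ATP, was also higher in the knockout pool. The middle 50% of its log2 ratios, from 0.09 to 0.48, was wider than that of complexes I, II, III and V. That of complex IV was wider still, from -0.05 to 0.49. Of the 16 glycolysis genes 13 were above equality, 4 were at least 1.5-fold higher and none lower, and the median log2 ratio was 0.23. Gapdh had 194 FPKM in control and 343 in knockout lungs, 1.77-fold higher (1.70 to 1.85), and Ldha, which makes lactate from pyruvate, had 105 and 180 FPKM, 1.71-fold higher (1.63 to 1.80). Eno1 (11.1 and 18.9 FPKM) and Pgk1 (50.2 and 77.4 FPKM) were the other two. Ldhb, the lactate dehydrogenase chain that prevails in oxidative tissue, was lower, at 70.6 and 50.4 FPKM, 1.40-fold (1.29 to 1.53). Near-identical copies of these genes were not checked.

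The 4 lower tissue isoforms of complex IV, Cox6a2, Cox6b2, Cox7a1 and Cox8b, all lie on chromosome 7, a feature seen after their values were known. Of the 10 expressed members on chromosome 7, 5 were below equality, and of the 78 members on other chromosomes 6 were. Over all 969 expressed genes of chromosome 7 the share below equality was 41.7% and the median log2 ratio 0.06, against 43.2% and 0.05 over all genes.

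Cox4i1, the general partner of Cox4i2, ends 410 kb before the start of Foxf1 on chromosome 8 (mm9). It was 1.2-fold higher, beside a median fold of 1.2 for the members. Its neighbour Cox4nb was 1.14-fold higher (1.01 to 1.29). An effect of the Foxf1 locus on these values was not tested.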
